A study of Homo sapiens with 6 samples.

Results

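DDX17 and DDX5 encode a pair of closely related DEAD-box RNA helicases, and their transcripts were followed here as RNAs crosslinked to protein in 6 iCLIP libraries. Members were all crosslink positions on the minus strand inside chr22:38879443-38902345 for DDX17 and chr17:62494374-62502484 for DDX5 (hg19, counted from 1), that is 2 genes set against 174731 strand-specific features that held any event. The spans are 22903 and 8111 nt long. The RefSeq genes of these names on GRCh38.p14 span 22874 and 8613 nt, and no coordinates were carried between the builds. The pair was chosen with results of these libraries in view, among them the density of QKI-5 crosslinks in DDX17, so levels and peaks in the QKI-5 libraries are given as a description.

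All libraries came from BEAS2B, an established line of bronchial epithelial cells, irradiated with UV at 150 mJ/cm2. In 3 libraries, called QKI-5 replicates 1 to 3, the antibody was a self-made one against QKI-5, and in the 3 controls the labels give no antibody, although the shared protocol text describes the precipitation without an exception for them. The protocol names a high and a low RNase A dilution and does not say which library had which. Nothing says that replicates were separate cultures, so a p-value measures only the spread between these libraries.

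DEAD-box helicases use ATP to unwind or remodel RNA and to displace proteins from it. DDX5 (p68) and DDX17 (p72 and p82) bind each other, act in splicing, and assist the Drosha complex that cuts primary microRNA transcripts. QKI-5 is the nuclear form of Quaking, a STAR-family protein that binds single-stranded RNA and regulates splicing. In iCLIP, UV light joins protein to RNA, reverse transcription tends to stop at the joined nucleotide, and each cDNA end counts as 1 crosslink event. An event count therefore reflects both the amount of an RNA and how readily it was recovered, and the files do not separate these.

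The QKI-5 libraries held 2143279 to 7283982 events and the controls 29810 to 137926. Levels are in EPM, events per 1000000 events of the library. A single event was worth 7.25 to 33.5 EPM in a control and 0.137 to 0.467 EPM in a QKI-5 library, so control values are coarse. Intervals are exact binomial at 95% and cover counting error only, since nothing states whether PCR copies were merged.

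DDX17 carried 4417, 1063 and 1913 events in QKI-5 replicates 1, 2 and 3, at 1987, 582 and 808 positions. These were 606, 496 and 662 EPM. The controls 1, 2 and 3 held 80, 22 and 12 events, or 580, 530 and 403 EPM. The groups overlapped, because QKI-5 replicate 2 lay below controls 1 and 2. The means were 588 ± 84.6 EPM with the antibody and 504 ± 91.6 EPM without it (SD, n = 3 each).

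DDX5 carried 1186, 462 and 488 events in QKI-5 replicates 1, 2 and 3, at 628, 250 and 236 positions. These were 163, 216 and 169 EPM. The controls 1, 2 and 3 held 51, 18 and 5 events, or 370, 434 and 168 EPM. Controls 1 and 2 lay above every QKI-5 library, and control 3, whose 5 events allow 54.5 to 391 EPM, lay among them. The means were 182 ± 28.9 EPM with the antibody and 324 ± 139 EPM without it (SD, n = 3 each).

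**Figure D1:**
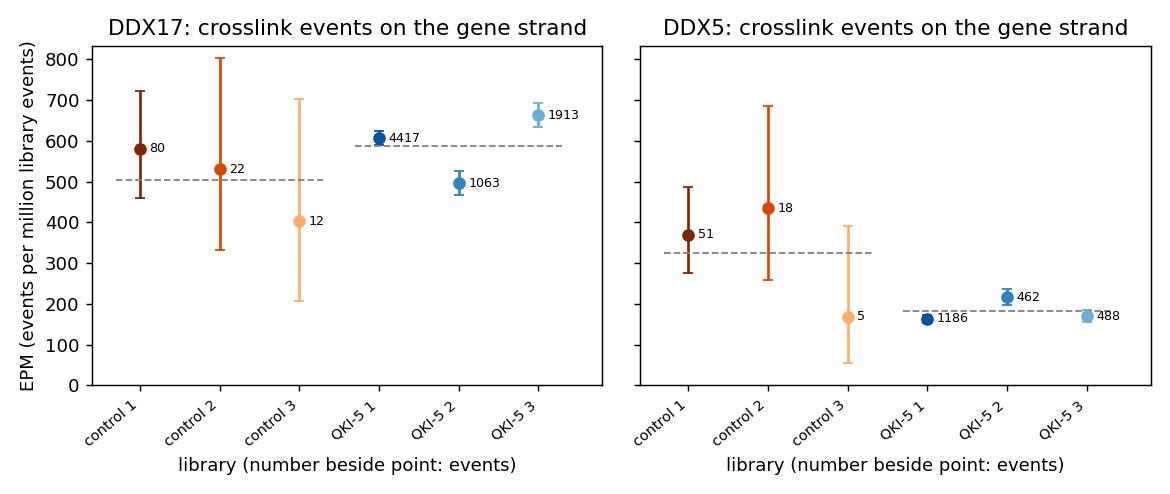
Crosslink level of DDX17 (left) and DDX5 (right) in EPM for each library, with exact 95% intervals as bars, group means as dashed lines and the number of events beside each point. The control intervals are wide, from 208 to 703 EPM for DDX17 in control replicate 3, and the groups overlap in both genes.

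Neither gene passed the test of QKI-5 over control. The test was edgeR's quasi-likelihood F test over all 29957 features that passed the filter on low counts, namely 10 kb strand-specific windows with each helicase span as a feature of its own. With Benjamini-Hochberg adjustment, 0.878% of these features were called at an adjusted p under 0.05, 231 higher (0.771%) and 32 lower (0.107%), against 0 of the 2 helicases. DDX17 had a log2 fold change of 0.82 (SE 0.54, unadjusted p = 0.129, adjusted p = 0.428 by edgeR). DDX5 had a log2 fold change of -0.28 (SE 0.46, unadjusted p = 0.546, adjusted p = 0.79 by edgeR).

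Those values stand beside a median over every tested feature that was 0.78 on the log2 scale with the TMM scaling and 0.27 with library totals. Relative to that median DDX17 lay at 0.03 and DDX5 at -1.06, and 51.1% and 14.6% of tested features had a lower fold change. The median tested feature held 1.64 EPM per kb in the QKI-5 libraries, and 1 control event was worth 7.25 to 33.5 EPM. At such a level a 10 kb window would hold few events or none in a control. The median and these percentages are therefore a coarse reference. With library totals DDX17 was at 0.24 and DDX5 at -0.85, at adjusted p = 0.875 and 0.343 by edgeR, and the calls over all features became 32 higher and 56 lower. Without control replicate 1 DDX17 passed at a log2 fold change of 1.83 (edgeR, adjusted p = 0.0273), and DDX5 turned to 0.71, in a fit over 52138 features whose median was 6.69. Without QKI-5 replicate 3 the DDX17 value was -0.05. No direction of its own is therefore given for either gene.

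The distance between the 2 helicases was steadier than either value alone. The DDX17 log2 fold change exceeded that of DDX5 by 1.096, and by 0.85 to 1.35 in all 13 alternative fits, which share libraries with each other. This distance does not depend on how libraries are scaled, so its steadiness across scalings was given in advance and is no support for it. The distance can be seen within single libraries. DDX17 took 78.8, 69.7 and 79.7% of the events of the pair in QKI-5 replicates 1, 2 and 3. In the controls 1, 2 and 3 it took 61.1% (52.2 to 69.5), 55.0% (38.5 to 70.7) and 70.6% (44.0 to 89.7). The means were 76.1 ± 5.53% and 62.2 ± 7.86% (SD, n = 3 each), a difference of 13.9 percentage points. QKI-5 replicate 2 lay below control replicate 3, and the two-sided exact permutation test gave p = 0.2, where 0.1 is the smallest p that 3 libraries against 3 allow. By that test the groups were not told apart, which does not show that they are alike.

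Per kb of span, the order of the pair differed between libraries. In the QKI-5 libraries DDX17 held 26.5, 21.7 and 28.9 EPM per kb and DDX5 held 20.1, 26.6 and 20.8 EPM per kb in replicates 1, 2 and 3. DDX17 was thus the denser transcript in QKI-5 replicates 1 and 3 and the sparser one in replicate 2, and their group means, 25.7 ± 3.69 and 22.49 ± 3.56 EPM per kb (SD, n = 3), lay within each other's spread. In controls 1, 2 and 3 DDX17 held 25.3, 23.2 and 17.6 and DDX5 held 45.6, 53.5 and 20.7 EPM per kb, so that DDX5 was the denser one in each control. In control 3 that order rests on 12 DDX17 and 5 DDX5 events and is uncertain. Both ranked near the top of the tested features in EPM per kb with or without antibody. These ranks set gene spans against fixed 10 kb windows, which need not follow genes. The pair was chosen with the QKI-5 density of DDX17 in view, so its rank in those libraries is a description. In mean EPM per kb over the QKI-5 libraries only 50 of the 29957 tested features lay above DDX17 and 70 above DDX5, where the median feature held 1.64. By the same measure over the controls 61 lay above DDX17 and 36 above DDX5.

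Nearly all events inside the spans lay on the gene strand, and that strand held far fewer events in the flanks. The opposite strand was not counted in the flanks. On the opposite strand inside DDX17 there was 1 event in QKI-5 replicate 1 and none in the other libraries, and inside DDX5 there was none in any library. In the 10 kb upstream of the 5' ends, the same strand held 0 to 2 events per library for DDX17 and 0 to 2 for DDX5. Downstream of the 3' ends, 10 kb held 94, 35 and 51 events in QKI-5 replicates 1, 2 and 3 for DDX17, or 1.29 to 1.77 EPM per kb. For DDX5 the downstream 10 kb held 106, 28 and 45 events, or 1.31 to 1.56 EPM per kb. The controls held 0 to 2 events in either downstream flank.

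Events were unevenly spread along DDX17, and the same way in each QKI-5 library. With the span cut in 3 equal parts, the part nearest the 3' end held 79.8, 74.4 and 78.5% of DDX17 events in QKI-5 replicates 1, 2 and 3. In the controls 1, 2 and 3 it held 65.0% (52 of 80 events), 68.2% (15 of 22) and 83.3% (10 of 12). Control replicate 3 exceeded all QKI-5 libraries, and the means of 77.6 ± 2.80 and 72.2 ± 9.80% (SD, n = 3 each) did not differ beyond the spread (two-sided exact permutation p = 0.4). The difference of 5.38 percentage points was 1.80 without control replicate 1, 3.39 without control replicate 2 and 10.96 without control replicate 3. With the span cut in 2 equal parts, the 3' part held 87.2% against 80.6% on average, a difference of 6.62 points (two-sided exact permutation p = 0.1, the smallest possible). Over 46 bins of 500 nt, the shares of DDX17 events in any 2 QKI-5 libraries had a Pearson correlation of 0.95 to 0.99, and the mean QKI-5 profile had one of 0.72 with the pooled control events. These describe bins of 1 transcript that share libraries and depth, and the controls held only 114 events.

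Inside that 3' part, 2 stretches stood out in DDX17, taken as runs of 500-nt bins with at least 5% of the gene's events in each QKI-5 library. The first lay 16500 to 17500 nt from the 5' end (chr22:38884846-38885845) and the second 20500 to 22500 nt from it (chr22:38879846-38881845). Together they made up 13.1% of the span and held 61.4, 51.8 and 59.9% of DDX17 events in QKI-5 replicates 1, 2 and 3. The 16500 nt before the first stretch held 10.7 to 11.96 EPM per kb in these libraries, and the 3000 nt between the stretches held 16.8 to 20.5. Whether the stretches fall in exons, introns or a UTR was not analysed here, as no hg19 annotation was used.

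**Figure D2:**
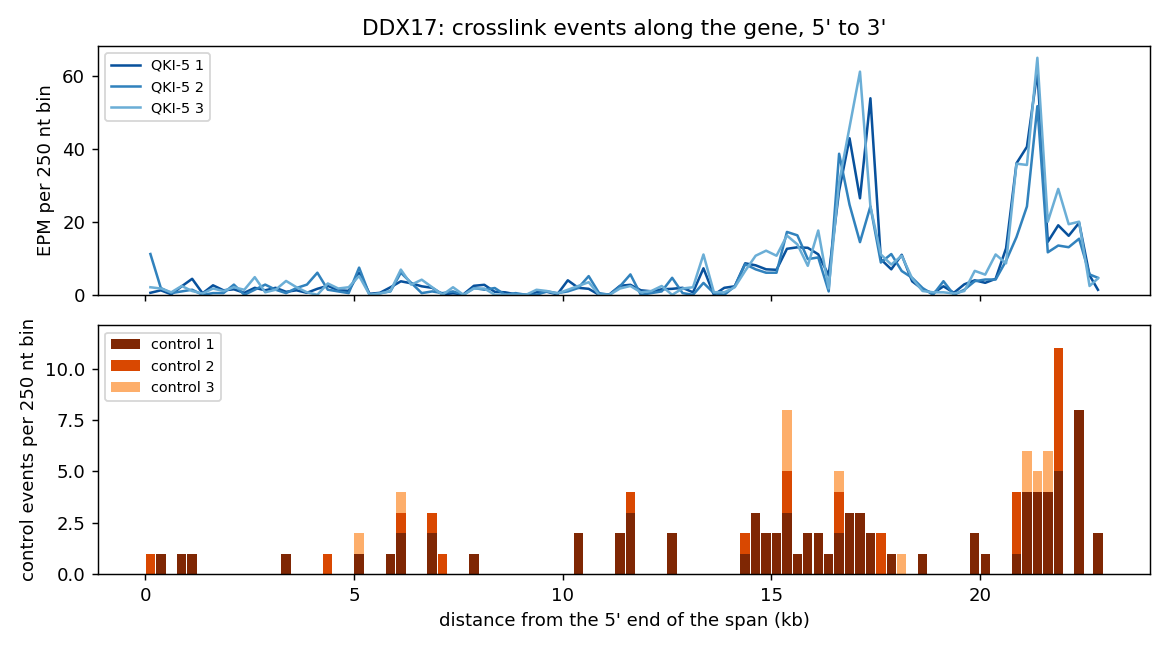
Events along DDX17 in 250-nt bins from the 5' end of the span in kb. The top panel gives EPM in each QKI-5 library as lines, and the bottom panel stacks the events of the 3 controls. In the QKI-5 libraries a first rise lies 16500 to 17500 nt and a second 20500 to 22500 nt from the 5' end, and control events are spread over both and over the gene before them.

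The first stretch of DDX17 held 1107, 219 and 469 events in QKI-5 replicates 1, 2 and 3, which is 25.1, 20.6 and 24.5% of DDX17 events. In controls 1, 2 and 3 it held 10, 2 and 1 events, which is 12.5, 9.09 and 8.33%. All QKI-5 shares thus lay above all control shares there, but the control intervals reached 21.8, 29.2 and 38.5%. The second stretch held 36.4, 31.2 and 35.3% in QKI-5 replicates 1, 2 and 3 and 32.5, 40.9 and 41.7% in the controls, with 26, 9 and 5 control events, and there the groups overlapped.

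Set against each other, the first stretch had 0.69, 0.66 and 0.69 events per event of the second in QKI-5 replicates 1, 2 and 3. That ratio was 0.38, 0.22 and 0.20 in controls 1, 2 and 3. With each position counted once it was 0.55, 0.51 and 0.51 against 0.38, 0.50 and 0.20, so control replicate 2 then lay beside the QKI-5 libraries. The control values set 9 positions against 24, 2 against 4 and 1 against 5, so those of controls 2 and 3 are uncertain. The stretches were chosen on QKI-5 events, which favours a higher QKI-5 share in them, and these ratios carry no test. In the first stretch the QKI-5 libraries had 3.75, 2.46 and 3.53 events per position and in the second 3.002, 1.89 and 2.59, against 1.39, 1.72 and 1.75 over the whole of those libraries. In the controls the first stretch had 1.00 to 1.11 events per position. Whether repeated cDNA copies add to the share of this stretch was not tested.

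**Figure D3:**
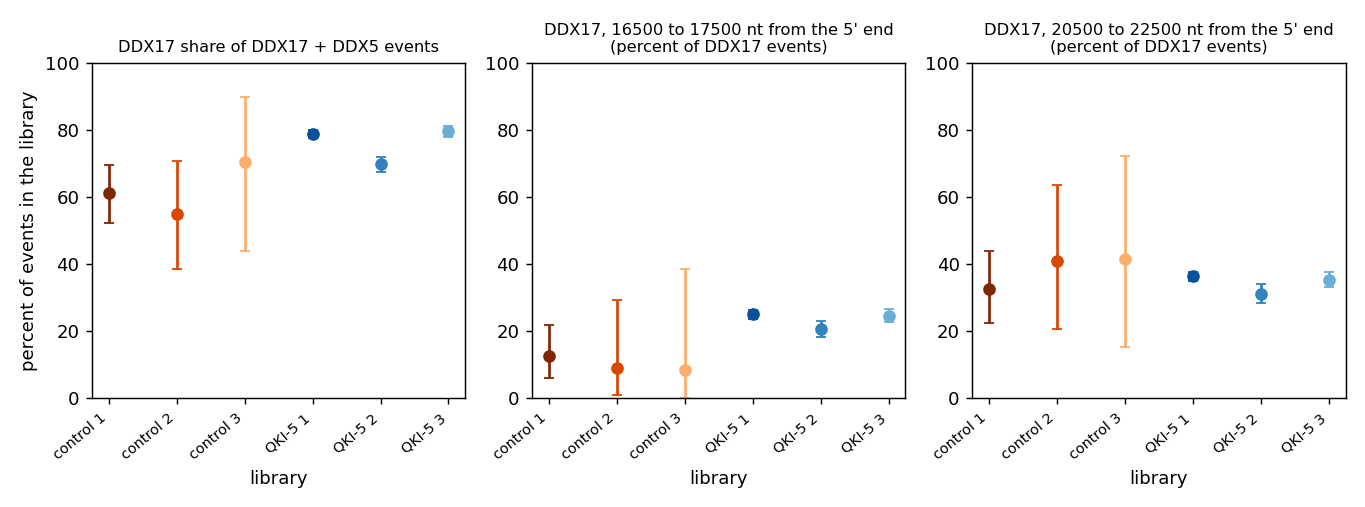
Shares of events in percent per library with exact 95% intervals: DDX17 among the events of both helicases (left), and the first (middle) and second (right) stretch among DDX17 events. All QKI-5 libraries exceed all controls in the first stretch, at 20.6% or more against 12.5% or less, while the groups overlap in the other panels.

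Narrow peaks were then located in both genes, as the 8 separate 31-nt stretches with the highest value of the lowest EPM over the QKI-5 libraries. The eighth DDX17 peak had 7.93 EPM in its lowest library and the next one, not kept, 7.27. In DDX5 these values were 2.77 and 2.47. All 8 DDX17 peaks lay in its 2 stretches, and their mean levels in QKI-5 libraries ran from 10.1 to 27.1 EPM.

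The peak of DDX17 with the highest such lowest value lay at chr22:38885449-38885479, in the first stretch. It held 142, 37 and 83 events in QKI-5 replicates 1, 2 and 3, or 19.5, 17.3 and 28.7 EPM, and 1 event in all controls together. A single position, 38885479, held 76, 15 and 25 of those events. The next peak, chr22:38885611-38885641, had 15.5, 30.8 and 22.2 EPM in the QKI-5 libraries and was spread over 27, 16 and 20 positions, with 2 control events.

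In DDX17 the levels of single peaks, relative to their means, varied more between QKI-5 libraries than that of the gene. The DDX17 peak at chr22:38885179-38885209 had 18.7, 11.2 and 51.6 EPM in QKI-5 replicates 1, 2 and 3, so replicate 3 stood far above the others. In the second stretch, the peak at chr22:38880963-38880993 held 18.9, 13.997 and 24.2 EPM, with 3 control events, all in control replicate 1. The peak at chr22:38880843-38880873 held 9.06, 12.1 and 8.999 EPM and was the only one of the 8 without a control event. QKI-5 replicate 2 also differed at the 5' end of DDX17, where the first 500 nt held 28 events in it, against 13 in the deeper replicate 1 and 11 in replicate 3.

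In DDX5 the events gathered in the middle of the gene. With the span cut in 3 equal parts, the middle part held 60.4, 63.4 and 60.0% of DDX5 events in QKI-5 replicates 1, 2 and 3 and 72.5, 61.1 and 60.0% in controls 1, 2 and 3. The part nearest the 3' end held 27.2, 25.1 and 28.9% in the QKI-5 libraries and 23.5, 11.1 and 40% in the controls (12, 2 and 2 events). The means of that 3' part, 27.1 ± 1.90 and 24.9 ± 14.5% (SD, n = 3 each), did not differ beyond the spread (two-sided exact permutation p = 0.7). The direction was not stable either: without control replicate 2 the difference of 2.20 percentage points became -4.69.

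By the rule used for DDX17, DDX5 had a single stretch, 3000 to 6500 nt from the 5' end (chr17:62495985-62499484), which is 43.2% of the span. It held 78.2, 79.9 and 80.3% of DDX5 events in QKI-5 replicates 1, 2 and 3. The controls 1, 2 and 3 held 90.2, 66.7 and 80.0% there, with 46, 12 and 4 events, so control and QKI-5 shares overlapped. Over 17 bins of 500 nt, the QKI-5 libraries had correlations of 0.95 to 0.98 with each other, and their mean profile had one of 0.96 with the pooled control events.

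**Figure D4:**
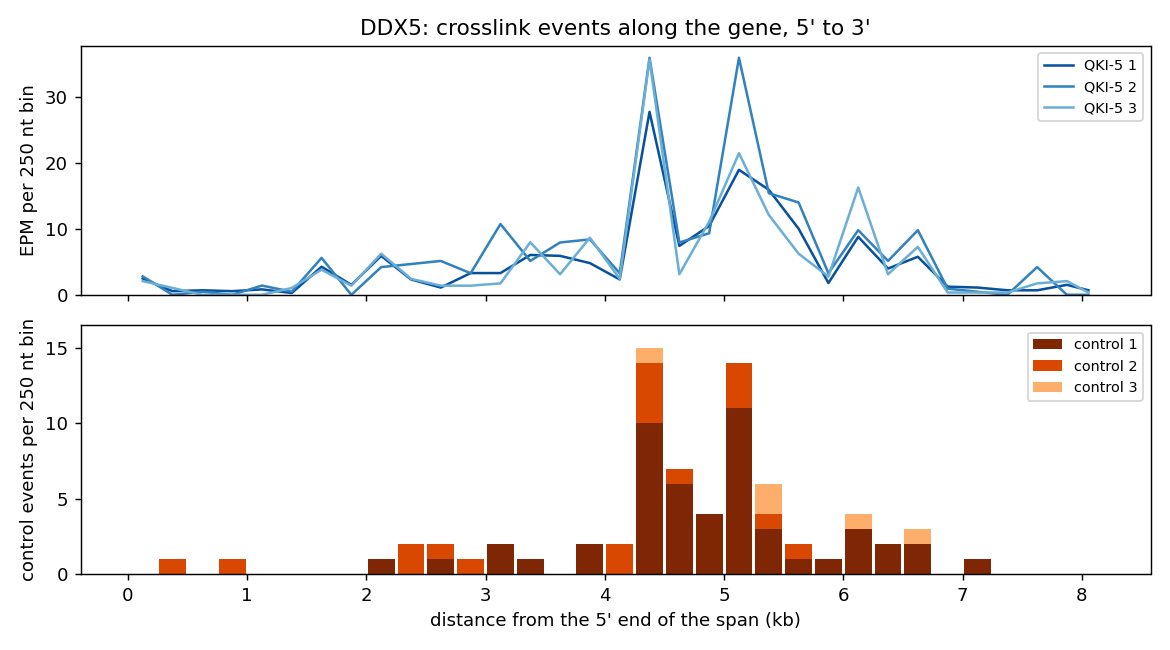
Events along DDX5 in 250-nt bins from the 5' end of the span in kb, with EPM of each QKI-5 library on top and stacked events of the 3 controls below. The highest bins lie between 4 and 5.5 kb in both panels, inside the stretch from 3000 to 6500 nt.

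The leading DDX5 peak was the strongest of either gene by its lowest library. It lay at chr17:62498010-62498040 and held 168, 63 and 91 events in QKI-5 replicates 1, 2 and 3, or 23.1, 29.4 and 31.5 EPM. The controls 1, 2 and 3 held 9, 4 and 1 events there, or 65.3, 96.4 and 33.5 EPM, so each control lay above each QKI-5 library. As a share of DDX5 events this peak had 14.2, 13.6 and 18.6% in the QKI-5 libraries and 17.6, 22.2 and 20% in the controls. It was thus a leading site of DDX5 without the antibody too.

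Other DDX5 peaks were weaker. The peak at chr17:62497315-62497345 had 8.79, 9.80 and 11.4 EPM in QKI-5 replicates 1, 2 and 3, with 2, 3 and 0 events in the controls. The peak at chr17:62497248-62497278 held 4.67, 7.93 and 6.23 EPM, with 6 control events, all in control replicate 1. The remaining 5 had means of 3.18 to 6.18 EPM in the QKI-5 libraries. The pooled controls held 32 events in the 8 DDX5 peaks and lay above every QKI-5 library in 6 of them. A single event is 4.78 EPM of the pooled controls, which by itself exceeds every QKI-5 value in 3 of the 8 DDX5 peaks. In the DDX17 peaks the pooled controls held 14 events. The peaks were chosen on QKI-5 levels, those of DDX17 were higher, and the 2 genes are not compared by these counts.

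**Figure D5:**
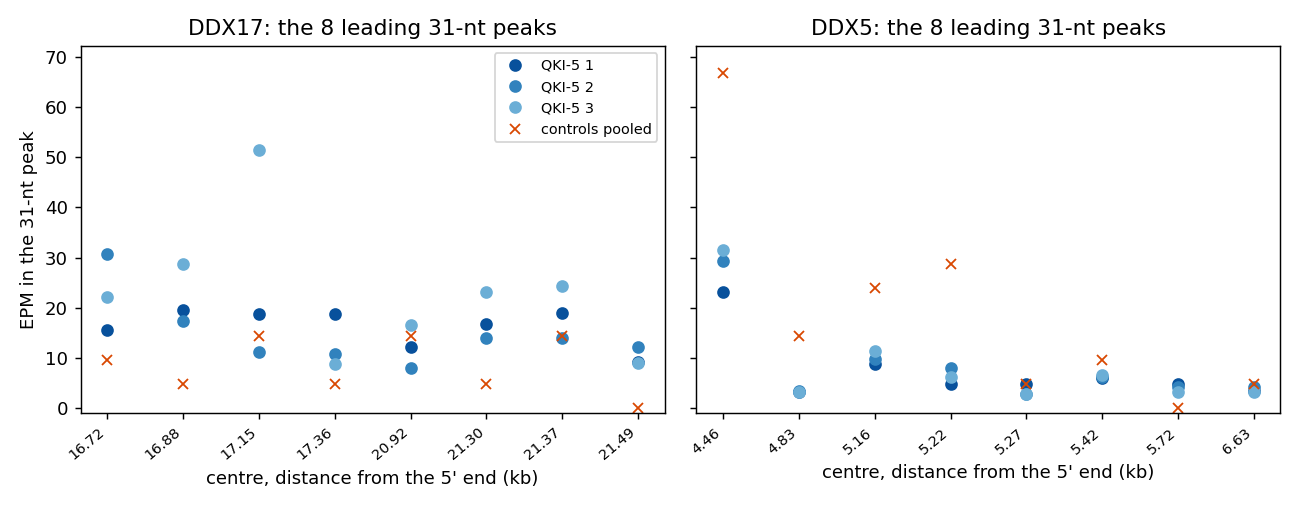
EPM in the 8 leading 31-nt peaks of DDX17 (left) and DDX5 (right), ordered from 5' to 3', with dots for the QKI-5 libraries and crosses for the pooled controls. A cross stands for few events, since 1 pooled control event is 4.78 EPM, and the peaks were chosen by their dots. The highest cross, at the leading DDX5 peak, stands for 14 events.

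To measure the peaks outside the libraries that chose them, 8 peaks were chosen from 2 QKI-5 libraries and read in the QKI-5 library left out and in the controls. In DDX17 they held 20.1, 21.4 and 27.7% of the gene's events in the left-out QKI-5 replicates 1, 2 and 3. Averaged over the 3 choices of peaks, they held 12.9, 13.6 and 19.4% in controls 1, 2 and 3. The means were 23.1 ± 4.05 and 15.3 ± 3.58% (SD, n = 3 each), the groups did not overlap, and the two-sided exact permutation p was 0.1, the smallest possible. Peaks were always chosen from QKI-5 libraries and not chosen anew when labels were permuted, and each control value averages 3 choices. The p-values for held-out peaks, here and for DDX5, are therefore not those of a full exchange of labels. The difference of 7.76 percentage points was 4.38 with 15-nt peaks and 4.89 with 4 peaks (two-sided exact permutation p = 0.2 and 0.3). Peaks were also both chosen and read by distinct positions in place of events, so they need not be the same peaks. The share was then lower with the antibody, a difference of -11.95 percentage points (p = 0.3 by the same exact test). The QKI-5 libraries held 582 to 1987 DDX17 positions and the controls 10 to 73. The cause of the reversal, and whether this unlike depth adds to it, was not tested.

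In DDX5 the held-out peaks of QKI-5 replicates 1, 2 and 3 took 32.04, 30.95 and 38.1% of the gene's events, against 44.4, 44.4 and 26.7% for controls 1, 2 and 3. The groups overlapped, and the means of 33.7 ± 3.86 and 38.5 ± 10.3% (SD, n = 3 each) did not differ beyond the spread (two-sided exact permutation p = 0.4). The difference of -4.82 percentage points ran from -0.46 (without QKI-5 replicate 2) to -10.7 (without control replicate 3). With peaks chosen and read by distinct positions it was -16.3, from 17.01% against 33.3% (p = 0.1 by the same exact test, the smallest possible). The QKI-5 libraries held 236 to 628 DDX5 positions and the controls 4 to 41. Whether this unlike depth adds to the difference in distinct positions was not tested. Whether the difference between groups itself differs between the 2 genes was not tested.

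Events recurred at the same nucleotides. In DDX17, 2661 positions held an event in some QKI-5 library and 147 held one in all 3, and these 147 took 22.2, 33.8 and 33.8% of its events in replicates 1, 2 and 3. In DDX5, 33 of 905 positions were shared by all 3, with 20.7, 24.2 and 31.8% of events. Many control events fell on positions that QKI-5 libraries also used, namely 52 of 80, 14 of 22 and 6 of 12 DDX17 events in controls 1, 2 and 3, and 37 of 51, 12 of 18 and 2 of 5 DDX5 events. The positions used by QKI-5 libraries made up 11.6% of the DDX17 span and 11.2% of the DDX5 span, but they lay closer together where events gathered. QKI-5 replicates 1, 2 and 3 themselves placed 47.4, 64.9 and 64.2% of DDX17 events on positions of the other QKI-5 libraries. The controls placed 65, 63.6 and 50% on positions of any QKI-5 library. For DDX5 these shares were 44.9, 55.0 and 61.5% in QKI-5 libraries and 72.5, 66.7 and 40% in controls. In both genes a control was matched to all 3 QKI-5 libraries and a QKI-5 library only to the others. Controls thus had more positions to fall on, and the shares of the groups are not on a like basis.

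Besides its mRNA, the DDX5 transcript contains microRNA hairpins. RefSeq (GRCh38.p14) places 3 mature microRNAs on the minus strand inside the DDX5 gene and none inside DDX17. Their sequences are shown because they are the small RNA products listed within this helicase transcript, with the seed, bases 2 to 8, in capitals.
hsa-miR-3064-5p: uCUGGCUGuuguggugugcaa
hsa-miR-3064-3p: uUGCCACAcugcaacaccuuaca
hsa-miR-5047: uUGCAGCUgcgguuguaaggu
The 3 seeds differ from one another. Crosslinks were not placed relative to these hairpins, since the files are on hg19.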

How the data were processed

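Each deposited file lists, for 1 library, single-nucleotide positions on one strand with the count of crosslink events there. The authors used Bowtie and cutadapt on hg19, per the submitters' processing notes. The sources used here do not give their versions, whether PCR copies were merged or how multiple alignments were treated. The deposited counts are not normalized.

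Events were summed over 10 kb strand-specific windows, with the events inside each helicase span moved to a feature of its own. These were tested with edgeR 4.0.16 in R 4.3.3 (limma 3.58.1): TMM factors, filterByExpr, group as the only term, Benjamini-Hochberg adjustment and a threshold of 0.05. The alternatives included DESeq2 1.42.0. Shares were compared by two-sided exact permutation tests (Python 3.11.15, scipy 1.17.1). Libraries of a group differed beyond sampling noise (chi-square per feature of 3.04 or more). Deviations from the group means correlated weakly between same-numbered libraries, at 0.00, 0.10 and 0.07 for numbers 1, 2 and 3. With so few control events, weak correlations do not show that the numbers are no pairs.

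The named items are both genes, the 8 leading peaks of each, and per gene the 3 features nearest in log2(EPM + 1) over the 6 libraries. The members and lists were chosen with earlier results of these data known. The lists of other helicases, their partners and cell type markers need an hg19 annotation and were not analysed here, so the labelled cell type was not checked.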

Additional observations from a re-analysis of the deposited data

How the results depend on the processing

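The count of called features (231 higher, 32 lower) depended on the processing. It was 142 higher with DESeq2 size factors, 32 higher and 56 lower with library totals, 589 and 107 with the DESeq2 Wald test, 25 and 67 with distinct positions, 659 higher with 5 kb windows, and 6 lower without a filter. With 1 library left out in turn it ran from 11 to 831 higher and from 8 to 97 lower. The number of features tested changed as well, so these counts do not share a total. Dropping QKI-5 replicate 1 gave 11 higher among 891 tested features. Dropping QKI-5 replicate 2 gave 97 lower among 950. Dropping control replicate 1 gave 831 higher and 8 lower among 52138. The main fit tested 29957 features, that with distinct positions 20699, that with 5 kb windows 24541 and that with no filter 174731. The cause of these shifts was not tested. The log2 fold change of DDX17 ran from -0.0492 (without QKI-5 replicate 3) to 1.83 (without control replicate 1) and that of DDX5 from -1.21 to 0.71, and without a filter DDX5 was at 0.20. DDX17 passed in 1 of 13 alternative fits and DDX5 in 0, at edgeR and DESeq2 adjusted p of 0.0273 to 0.973 and 0.165 to 0.999.

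With the span of DDX5 cut in 2 equal parts, the difference in its 3' share was -9.97 percentage points, and with 1 library left out it ran from -4.69 to 9.76 for the 3 equal parts. The held-out peaks of DDX17 gave -11.95 points with distinct positions. A definition by 500-nt bins, chosen after seeing the data, gave 0.446 points for DDX5. Of 52 alternative values from the fits, 29 kept their direction and their side of the threshold or, for counts, stayed within 1.5 times. Of 48 from the permutation tests, which cannot pass 0.05, 44 kept their direction, and their sizes varied.

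A fit with a replicate block (the number as a term in edgeR) called 0 features higher and 0 lower (smallest adjusted p 0.196, with 2202 at an unadjusted p under 0.05), and the log2 fold changes were 1.02 for DDX17 and -0.00262 for DDX5. The numbers were not taken as pairs. Controls 2 and 3 correlated best with the QKI-5 library of their own number (0.10 and 0.07), and control 1 correlated with none (0.01 at most, -0.003 with its own). Sign flips of the 3 same-numbered differences cannot give a p below 0.25. Depth limits the controls most, since DDX5 had 5 events and DDX17 12 in control replicate 3.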

Other observations

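The features nearest to DDX17 in log2(EPM + 1) over the 6 libraries were the minus-strand windows chr9:35650001-35660000 (Euclidean distance 1.22) and chr7:26230001-26240000 (1.24) and the plus-strand window chr11:65200001-65210000 (1.58). For the window on chromosome 7, EPM were 485, 412 and 452 with the antibody (replicates 1, 2 and 3) and 377, 313 and 503 without it. Those nearest to DDX5 were the minus-strand windows chr2:230040001-230050000 (0.98) and chr12:34370001-34380000 (1.01) and the plus-strand window chr9:114670001-114680000 (1.31). For the window on chromosome 2, EPM were 155, 328 and 167 with the antibody and 435, 434 and 101 without it. None of these 6 features passed the edgeR test, at adjusted p of 0.174 to 0.916, and likeness over 6 libraries says nothing of shared function.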
